A study of Saccharomyces cerevisiae with 4 samples.

Results

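Cytosolic large-subunit ribosomal protein genes of budding yeast (Saccharomyces cerevisiae) were followed in cells lacking WPL1 and in wild type cells. The genes were taken by their annotation symbol, RPL or RPP followed by a number and, where there is one, the letter A or B, and genes of chromosome IX were left out. Of the 82 genes of the gene table with such a symbol, 4 lay on chromosome IX and 6 had no probe set, which left 72 of the 5449 genes measured. The symbol RPP1 (YHR062C) belongs to a protein subunit of RNase P and RNase MRP, which process transfer and ribosomal RNAs, so 71 of the 72 encode ribosomal proteins. RPP1 is no large-subunit gene but stays in every count, median and correlation over the 72 genes.

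The study measured total RNA on 4 Affymetrix Yeast Genome 2.0 arrays. Strain Y3501, mating type a with the WPL1 gene replaced (wpl1∆::KAN), gave 2 arrays, and strain K699, mating type a, gave the 2 wild type arrays. Both strains grew in YP medium with glucose and were harvested in exponential growth, and the comparison asks how loss of Wpl1, which promotes release of cohesin from chromosomes, changes transcript levels. How the strains differ otherwise is not given in the labels, so other strain differences and the deletion cannot be told apart. Arrays with the same replicate number carry a shared date tag in the labels. Nothing in the labels says that the arrays of a strain came from separate cultures, so a p-value here reflects only how far these arrays spread, which may be technical.

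The large ribosomal subunit holds the peptidyl transferase centre and the tunnel through which the new protein leaves. Most of its proteins are encoded in yeast by a pair of duplicated genes, named A and B, that make identical or nearly identical proteins. Ribosomal protein genes are among the most strongly transcribed genes of growing yeast, and they are known to be switched together by nutrient and stress signals through Rap1, Fhl1, Ifh1 and Sfp1.

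Values are log2 expression values per probe set, where 1 unit is a doubling. Where a gene had several probe sets, their average was used. Median values over the 72 genes were 12.84 and 12.81 in wpl1 deletion replicates 1 and 2, against 12.87 and 12.80 in wild type replicates 1 and 2. The medians over all 5449 genes lay between 8.25 and 8.43. The 72 genes were above background in all 4 arrays, with background set from the 1746 probe sets for fission yeast (S. pombe) on the same array, at their 95th percentile of 5.79 to 6.10. RAD61, the standard name of WPL1, had 3.96 and 4.44 in the deletion arrays, below background, against 6.43 and 6.55 in the wild type arrays, above it. The mating type a markers MFA1, MFA2, STE2 and BAR1 were above background in all 4 arrays. Of the alpha markers, STE3 was above background in 0 arrays, MF(ALPHA)1 in 3, and MF(ALPHA)2 and SAG1 in 4. The arrays measure RNA from whole cultures scaled to equal distributions, so a change in total RNA per cell or in the number of cells cannot be told apart from none.

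Not every probe set can tell A from B. By the naming used for these arrays, a probe set ending in _at matches 1 transcript, and one ending in _s_at also matches related transcripts. Of the 72 genes, 59 were read by _at probe sets alone and 7 by 1 probe set of each kind, namely RPL2A, RPL8A, RPL11B, RPL14B, RPL18B, RPL20B and RPL21A. The other 6, RPL1B, RPL4A, RPL7A, RPL35A, RPL41A and RPL42B, were read by an _s_at probe set alone. For these 13 genes the value may hold signal of the partner gene, and RPL4A in particular cannot be read as the A copy alone. Both genes were measured for 25 A and B pairs, and 19 of these had no _s_at probe set in either gene. Of the other genes, 12 have no partner letter, RPL3, RPL5, RPL10, RPL25, RPL28, RPL29, RPL30, RPL32, RPL38, RPL39, RPP0 and RPP1. The partner lies on chromosome IX for 4, RPL2A, RPL16B, RPL34A and RPL40B, and it has no probe set for 6, RPL1B, RPL7A, RPL18B, RPL35A, RPL41A and RPL42B.

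The wpl1 deletion left no large-subunit gene past the test. With limma (adjusted p under 0.05 over all genes), 0 of the 72 genes differed between deletion and wild type, and the share called over all genes was 0%. At an unadjusted p under 0.05, 0 of the 72 genes passed, against 0.184% of all genes. The SEs of this fit hold the difference between the replicate numbers, which makes small differences hard to call. With the replicate number as a block 1 of the 72 genes passed at that level, against 2.86% of all genes. Differences, deletion minus wild type, ran between −0.32 and 0.37 on the log2 scale with an SD over the 72 genes of 0.11, and 0 of them reached a 1.5-fold change. Their median was 0.012, against −0.025 over all genes, and 42 of the 72 genes had a positive difference, which is 58.3% against 43.6% of all genes. By replicate number the median over the 72 genes was −0.015 in replicate 2 and 0.034 in replicate 1, while that over all genes was −0.10 in replicate 2 and 0.039 in replicate 1. The difference had the same sign in both replicate numbers for 42 of the 72 genes. Across the 72 genes, which share the arrays, the differences of the replicate numbers correlated with Pearson's r = 0.107.

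**Figure D1:**
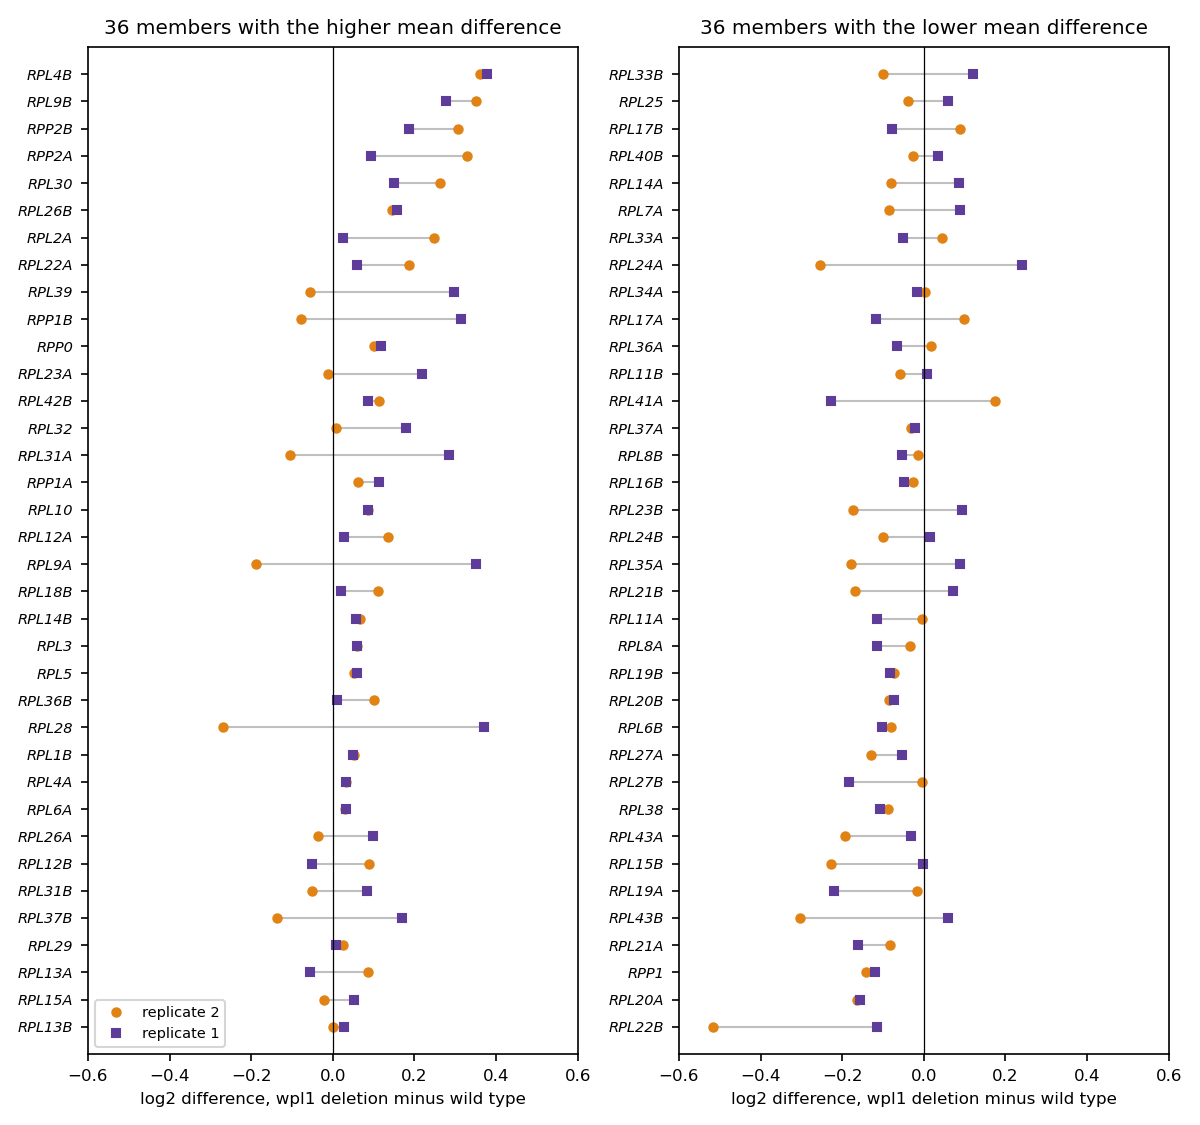
Log2 difference, wpl1 deletion minus wild type, of each of the 72 genes, ordered by the mean difference, with an orange circle for replicate 2 and a purple square for replicate 1. Means run between −0.32 and 0.37, and for 42 genes the marks of both replicate numbers lie on the same side of 0.

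The acidic stalk of the large subunit, which recruits translation factors to the ribosome, had positive mean differences for all 5 of its genes, and none passed the test. RPP2B, one of the P2 proteins of the stalk, had 12.40 and 12.45 in deletion replicates 1 and 2, against 12.21 and 12.14 in wild type replicates 1 and 2. RPP2A, the other P2 gene, had 12.84 and 12.95 in the deletion arrays, against 12.74 and 12.62 in the wild type arrays. For both P2 genes the deletion arrays lay above the wild type arrays without overlap. The difference was 0.25 (SE 0.23, 1.19-fold, adjusted p = 1 in limma) for RPP2B and 0.21 (SE 0.23, 1.16-fold, adjusted p = 1) for RPP2A. RPP0, the base of the stalk, had 13.89 and 13.47 in the deletion arrays, against 13.78 and 13.37 in the wild type arrays. RPP1A, a P1 protein, had 13.61 and 13.31 in the deletion arrays, against 13.50 and 13.24 in the wild type arrays. RPP1B, the other P1 gene, had 12.65 and 12.71 in the deletion arrays, against 12.33 and 12.78 in the wild type arrays. The groups overlapped for RPP0, RPP1A and RPP1B, whose mean differences were 0.11, 0.087 and 0.12. For RPP1B the replicate numbers had opposite signs, −0.077 in replicate 2 and 0.32 in replicate 1, while the other 4 stalk genes were higher in the deletion in both.

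Among all 72 genes, 4 had both deletion arrays above both wild type arrays, namely RPP2A, RPP2B, RPL6A and RPL32, which is 5.56% against 5.32% of all genes. In 3 genes, RPL20A, RPL21A and RPL6B, both deletion arrays lay below both wild type arrays, which is 4.17% against 8.61% of all genes. RPL6A, RPL6B and RPL32 were named here after their values were seen. Both shares were near or under those of all genes.

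RPL4B had the largest positive mean difference of the 72 genes. The protein reaches with a long loop into the exit tunnel, and its gene is separated from RAD61 on chromosome IV by 1 gene. RPL4B had 9.26 and 8.55 in deletion replicates 1 and 2, against 8.88 and 8.19 in wild type replicates 1 and 2. The groups overlapped, because replicate 2 was low in both strains, but the difference was alike in the replicate numbers, 0.36 in replicate 2 and 0.38 in replicate 1. Its mean of 0.37 had an SE of 0.37 (1.29-fold, adjusted p = 1 in limma). Leaving out 1 array, which breaks the pairing, gave 0.013 without deletion replicate 1, 0.022 without wild type replicate 2, 0.72 without wild type replicate 1 and 0.73 without deletion replicate 2. With the replicate number as a block the SE was 0.14. RPL4B alone of the 72 genes then had an unadjusted p under 0.05 (1 of 72, against 2.86% of all genes), and its adjusted p in limma was 0.996.

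RPL9B, whose protein lies near the base of the stalk, had 10.06 and 10.63 in the deletion arrays, against 9.79 and 10.28 in the wild type arrays. Its difference was 0.31 (SE 0.32, adjusted p = 1 in limma), with overlapping groups, and it was 0.032 without deletion replicate 2, 0.069 without wild type replicate 1, 0.56 without wild type replicate 2 and 0.60 without deletion replicate 1. RPL22B had the largest negative difference, −0.32 (SE 0.40, 0.803-fold, adjusted p = 1 in limma), and its protein is known to hold back splicing of the RPL22B transcript. RPL22B had 11.15 and 11.72 in the deletion arrays, against 11.26 and 12.23 in the wild type arrays. The groups overlapped, and without wild type replicate 2, the highest of the arrays, the difference was 0.17.

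RPL20A, a surface protein of the large subunit, had 12.83 and 12.84 in the deletion arrays, against 12.99 and 13.00 in the wild type arrays. The deletion arrays lay below the wild type arrays without overlap, and the difference of −0.16 was the same in both replicate numbers, with an SE of 0.23 and an adjusted p of 1 in limma. RPL21A had 13.20 and 13.27 in the deletion arrays, against 13.36 and 13.35 in the wild type arrays, a difference of −0.12 (SE 0.23). Its probe sets differed, with −0.25 in the _at probe set and 0.011 in the _s_at probe set, so the sign turned when the brightest probe set was taken. RPP1, the RNase P and MRP subunit, had 9.01 and 8.41 in the deletion arrays, against 9.13 and 8.55 in the wild type arrays, a difference of −0.13 (SE 0.34) with overlapping groups.

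No gene of the regulator or assembly lists passed the test either. Of 21 regulators of ribosomal protein genes, 0 passed the test in limma, and their median difference was −0.058 with 5 above 0. Sfp1, an activator of ribosomal protein genes, had −0.22 for its gene SFP1 (SE 0.24). The coactivator gene IFH1 had 0.086 (SE 0.33). Of 54 genes for assembly, export and chaperones, mostly of the large subunit, 0 passed, and their median was −0.12 with 14 above 0. YAR1 and TSR4 of this list are chaperones of small-subunit proteins. That median differed between the replicate numbers, −0.32 in replicate 2 and 0.093 in replicate 1. RRB1, the chaperone of Rpl3, had −0.28 (SE 0.25), and BCP1, the chaperone of Rpl23, had −0.27 (SE 0.24). SQT1, the chaperone of Rpl10, had 0.42 (SE 0.27) and lies on chromosome IX. At an unadjusted p under 0.05, 0 genes of either list passed. The 51 small-subunit ribosomal protein genes had a median of 0.0085, and 26 of them were above 0.

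The 4 large-subunit genes of chromosome IX that the rule left out had larger differences in replicate 2 than most of the 72. In that replicate RPL16A, RPL34B, RPL2B and RPL40A had 0.58, 0.58, 0.46 and 0.36. In replicate 1 they had −0.029, 0.17, 0.023 and −0.015, in the same order.

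The large-subunit genes differed more between the replicate numbers than between the genotypes, as all genes did, and they went both ways. Differences were taken as replicate 2 minus replicate 1 and ran between −0.70 and 1.0, with an SD over the 72 genes of 0.35 and a median of −0.0041. The SD over all genes was 0.49 between the replicate numbers and 0.19 between the genotypes, each larger than that over the 72 genes. With limma (adjusted p under 0.05), 9 of the 72 genes were higher in replicate 2, which is 12.5% against 8.75% of all genes. In the other direction 4 genes were lower, RPP1 among them, which is 5.56% against 19.7% of all genes. When each array was centred on its gene median, the median difference of all genes moved to −0.023, against −0.13 as deposited. The split of the 72 genes was then 13 higher and 2 lower, and that of all genes 761 higher and 827 lower, against 477 higher and 1073 lower as deposited. Leaving out either array of replicate 1 lowered the number of calls strongly, both among the 72 genes and over all genes. Leaving out either array of replicate 2 left it nearly as it was among the 72 genes and raised it over all genes. Each such fit holds 1 array of 1 replicate number, and why they differ was not tested. The genotypes share no arrays in this contrast, and 59 of the 72 genes had the same sign in both (81.9%, against 76.6% of all genes). Across the 72 genes the difference in the deletion correlated with that in wild type with Pearson's r = 0.863 and Spearman's rho = 0.851. What differs between the replicate numbers beside the date tag is not given in the labels.

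**Figure D2:**
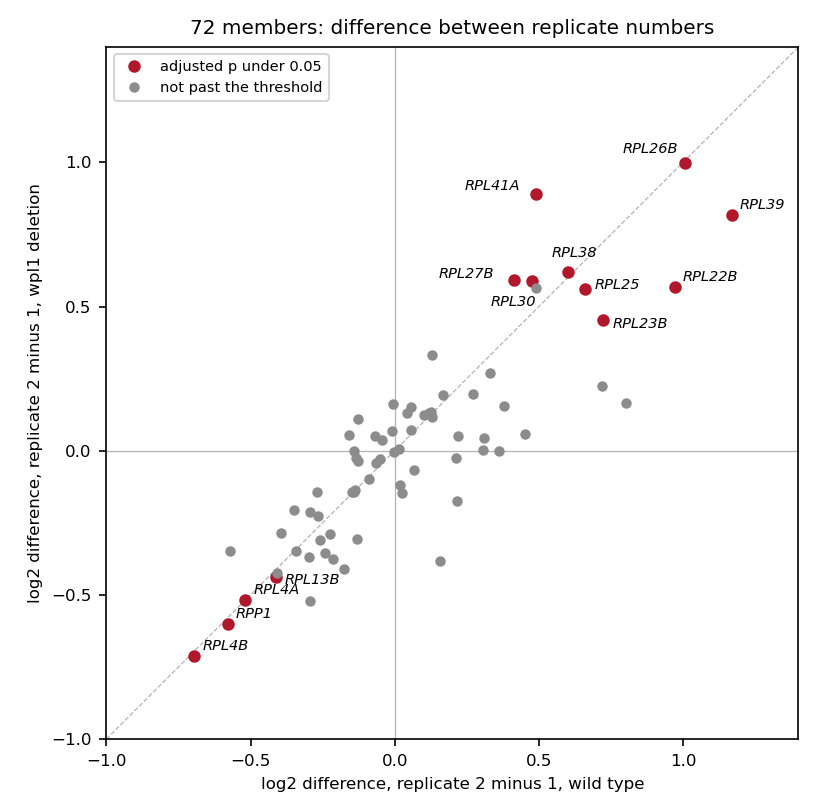
Log2 difference, replicate 2 minus replicate 1, of the 72 genes in the wpl1 deletion (vertical axis) and in wild type (horizontal axis), with a dashed line of equality. Red points are the 13 genes past the threshold, 9 in the upper right and 4 in the lower left, and grey points are the other genes.

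RPL26B and RPL39, both genes of the exit tunnel, had the largest differences of the 9 genes that rose. RPL26B, whose protein lies beside the mouth of the exit tunnel, had 11.55 in the deletion and 11.40 in wild type in replicate 2, against 10.55 and 10.39 in replicate 1. Both arrays of replicate 2 lay above both of replicate 1, and the rise of 1.0 (SE 0.13, 2.00-fold, adjusted p = 0.011 in limma) also passed in each of the 13 alternatives run. Of these, 4 leave 1 array in a group, whose spread is then taken to be that of the other group. RPL39, a very small protein that lines the tunnel, had 13.16 in the deletion and 13.21 in wild type in replicate 2, against 12.34 and 12.04 in replicate 1. It rose by 0.99 (SE 0.15, 1.99-fold, adjusted p = 0.012 in limma) without overlap of the groups, and its adjusted p was 0.056 without wild type replicate 1.

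RPL22B had 11.72 in the deletion and 12.23 in wild type in replicate 2, against 11.15 and 11.26 in replicate 1, a rise of 0.77 (SE 0.19, 1.70-fold, adjusted p = 0.034 in limma). RPL41A encodes a very short basic peptide at the subunit interface. It had 13.84 in the deletion and 13.66 in wild type in replicate 2, against 12.95 and 13.18 in replicate 1, a rise of 0.69 (SE 0.14, 1.61-fold, adjusted p = 0.022 in limma). The replicate numbers did not overlap for RPL22B or RPL41A. With all probe sets of the array in the fit, RPL22B (adjusted p = 0.082 in limma) and RPL41A (adjusted p = 0.064) missed the threshold. RPL41A was read by an _s_at probe set alone, and RPL41B had no probe set of its own. The other 5 genes that rose, RPL38, RPL25, RPL23B, RPL30 and RPL27B, were named after their values were seen and had differences of 0.50 to 0.61. With the genotype as a term RPL23B (adjusted p = 0.052 in limma), RPL30 (0.055) and RPL27B (0.064) missed the threshold, and RPL38 and RPL25 passed. Rpl25 sits at the tunnel mouth and is a docking site for the signal recognition particle, and Rpl30 binds its own pre-mRNA and holds back its splicing.

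RPL4B and RPL4A were both lower in replicate 2. RPL4B had 8.55 in the deletion and 8.19 in wild type in replicate 2, against 9.26 and 8.88 in replicate 1, and fell by 0.70 (SE 0.19, 0.614-fold, adjusted p = 0.041 in limma). RPL4A had 13.38 in the deletion and 13.34 in wild type in replicate 2, against 13.89 and 13.86 in replicate 1, and fell by 0.52 (SE 0.12, 0.698-fold, adjusted p = 0.028 in limma). After centring RPL4B missed the threshold (adjusted p = 0.054 in limma). Replicate 2 lay below replicate 1 without overlap for both genes, and the RPL4A probe set may also read RPL4B. RPP1 had 8.41 in the deletion and 8.55 in wild type in replicate 2, against 9.01 and 9.13 in replicate 1, and fell by 0.59 (SE 0.13, adjusted p = 0.025 in limma). RPL13B, named after its values were seen, was the fourth gene past the threshold, with a difference of −0.43 and an adjusted p of 0.045 in limma. With the genotype as a term RPL4A (adjusted p = 0.055 in limma) and RPL13B (adjusted p = 0.084) missed the threshold.

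The 12 genes without a partner letter are the sole source of their proteins, and 5 of them are among the 13 genes past the threshold, RPL25, RPL30, RPL38 and RPL39 higher and RPP1 lower in replicate 2, where 8.75% of all genes were higher and 19.7% lower. RPL5, whose protein carries the smallest ribosomal RNA into the subunit, had −0.35 (adjusted p = 0.078 in limma). RPL28, the gene in which cycloheximide resistance arises, had 0.48 (adjusted p = 0.089). RPL3 and RPL10, whose proteins sit by the peptidyl transferase centre, had −0.14 each, and RPL29 and RPL32 had 0.065 and −0.060. Between the genotypes the 12 genes ran between −0.13 for RPP1 and 0.21 for RPL30. RPL30, with 11.27 and 11.86 in deletion replicates 1 and 2 against 11.12 and 11.60 in wild type replicates 1 and 2, overlapped between the genotypes.

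RPL2A, whose protein lies close to the peptidyl transferase centre, had 12.68 in the deletion and 12.43 in wild type in replicate 2, against 13.03 and 13.00 in replicate 1. Its difference of −0.46 missed the threshold (SE 0.14, adjusted p = 0.054 in limma). The _s_at probe set of RPL2A, which may also read RPL2B of chromosome IX, had −0.70, and its _at probe set had −0.22. RPL2A passed with 6 alternatives, among them the brightest probe set (adjusted p = 0.031 in limma). Of the stalk genes RPP0 had −0.42 (adjusted p = 0.056), RPP1A −0.28 and RPP1B 0.26, while RPP2A had −0.0085 and RPP2B −0.0082, and none of the 5 passed.

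The probe sets of a gene often gave different answers in this contrast. RPL8A had −0.55 in the _at probe set and 0.04 in the _s_at probe set, and RPL11B, which binds the smallest ribosomal RNA together with Rpl5, had −0.49 and −0.02. RPL14B had 0.31 in the _at probe set and −0.04 in the _s_at probe set. RPL21A had 0.19 and −0.13, RPL20B −0.03 and 0.28, and RPL18B 0.0099 and −0.17, in the same order. In 5 of the 7 genes the probe sets had opposite signs, and an average over them can hide such a split. With plain _at probe sets alone, an alternative added after seeing the data, 66 of the 72 genes were measured and 13 passed, where 28.8% of all genes passed. Of these 13, 11 are among the 13 genes called from the averaged probe sets.

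**Figure D3:**
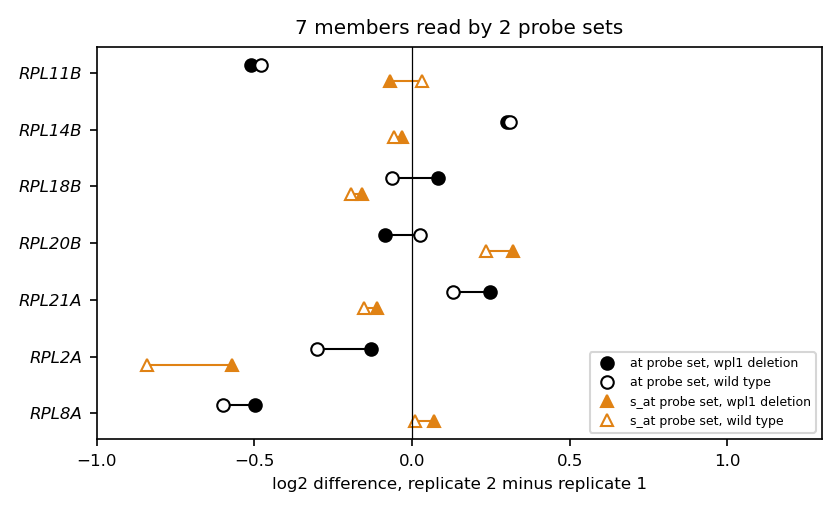
Log2 difference, replicate 2 minus replicate 1, of the 7 genes read by an _at probe set (black circles) and an _s_at probe set (orange triangles), with filled marks for the wpl1 deletion and open marks for wild type. The mean difference was −0.55 in the _at and 0.04 in the _s_at probe set of RPL8A, while in RPL18B and RPL2A some marks of 1 kind lie at least as far from each other as from the nearest mark of the other kind.

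The A and B paralogs were compared by whether A minus B differed between groups, because levels of different probe sets cannot be set against each other. Between the genotypes 0 of the 25 pairs passed in limma (adjusted p under 0.05 over the 52 A and B pairs found by symbol), against 0% of the 52 pairs. At an unadjusted p under 0.05 in limma 0 of the 25 passed. The 52 pairs include the 25, and the others are also ribosomal protein pairs, except the COX5 and NHP6 pairs. The median size of the difference was 0.058 over the 25 pairs and 0.078 over the 52 pairs, and 10 of the 25 pairs had the same sign in both replicate numbers. A minus B of the RPL22 pair was 0.44 higher in the deletion (SE 0.53, adjusted p = 0.994 in limma), with 0.70 in replicate 2 and 0.17 in replicate 1. RPL22A had 12.87 and 12.73 in deletion replicates 1 and 2, against 12.81 and 12.54 in wild type replicates 1 and 2, and RPL22B is given above. The difference of the RPL22 pair lay for the most part in RPL22B, and without wild type replicate 2 it was −0.18.

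The RPL4 pair had −0.34 (SE 0.15, adjusted p = 0.994 in limma), with −0.33 in replicate 2 and −0.35 in replicate 1. This value came from RPL4B with 0.37, since RPL4A had 0.033. Under the replicate block it was the 1 pair of the 25 with an unadjusted p under 0.05 in limma, against 2 of the 52 pairs. Its SE was then 0.057 and its adjusted p in limma 0.708. The RPL4A probe set may also read RPL4B. The RPL23 pair had 0.14 (SE 0.46), and the RPL15 pair had 0.13 (SE 0.13).

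**Figure D4:**
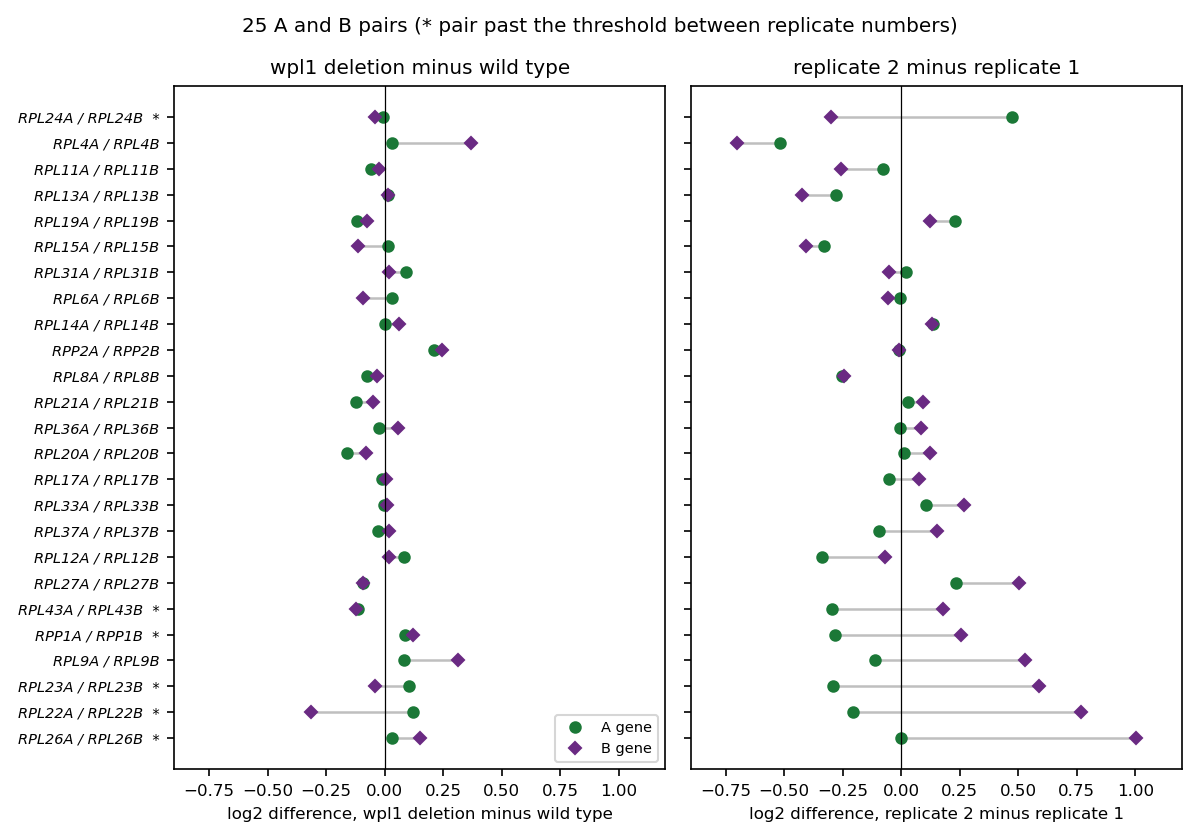
Log2 differences of the A gene (green circle) and the B gene (purple diamond) of the 25 pairs, wpl1 deletion minus wild type on the left and replicate 2 minus replicate 1 on the right, joined by a line whose length is the difference of A minus B. Stars mark the 6 pairs past the threshold between replicate numbers, and 0 pairs passed between genotypes.

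Between the replicate numbers A and B parted in 6 of the 25 pairs (24%, against 26.9% of the 52 pairs), all of them without an _s_at probe set. In 5 of the 6, namely RPL26, RPL22, RPL23, RPL43 and the P1 pair of the stalk, the B gene moved up relative to the A gene in replicate 2. In RPL24 the A gene moved up relative to the B gene. The share was near that of the 52 pairs, which hold these 25 and are nearly all of ribosomal proteins. Without either array of replicate 1 the test called fewer of the 25 pairs, and without either array of replicate 2 it called more. Each such fit leaves 1 array in a group. With the genotype as a term the test called 2 pairs, RPL26 and RPL23.

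RPL26A had 12.90 in the deletion and 12.94 in wild type in replicate 2, against 12.97 and 12.87 in replicate 1. With RPL26B about 1 unit higher in replicate 2, A minus B fell by 1.0 (SE 0.098, adjusted p = 0.012 in limma), with −1.06 in the deletion and −0.94 in wild type. RPL23A, a protein of the subunit interface, had 11.70 in the deletion and 11.71 in wild type in replicate 2, against 12.11 and 11.89 in replicate 1. RPL23B had 12.43 in the deletion and 12.61 in wild type in replicate 2, against 11.98 and 11.89 in replicate 1. The genes of the RPL23 pair thus went opposite ways, with RPL23A at −0.29 and RPL23B at 0.59, and A minus B fell by 0.88 (SE 0.10, adjusted p = 0.012 in limma).

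RPL24A, another protein of the subunit interface, had 12.25 in the deletion and 12.50 in wild type in replicate 2, against 12.02 and 11.78 in replicate 1. RPL24B had 12.89 in the deletion and 12.99 in wild type in replicate 2, against 13.24 and 13.23 in replicate 1. Neither gene passed alone, but A minus B rose by 0.77 (SE 0.12, adjusted p = 0.020 in limma). For RPL22, A minus B fell by 0.97 (SE 0.25, adjusted p = 0.047 in limma), with −0.71 in the deletion and −1.24 in wild type, and RPL22A alone had −0.21. The P1 pair, RPP1A and RPP1B, fell by 0.54 (SE 0.11, adjusted p = 0.028 in limma), and the RPL43 pair fell by 0.47 (SE 0.088, adjusted p = 0.024 in limma). These 2 pairs were named after their values were seen.

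**Figure D5:**
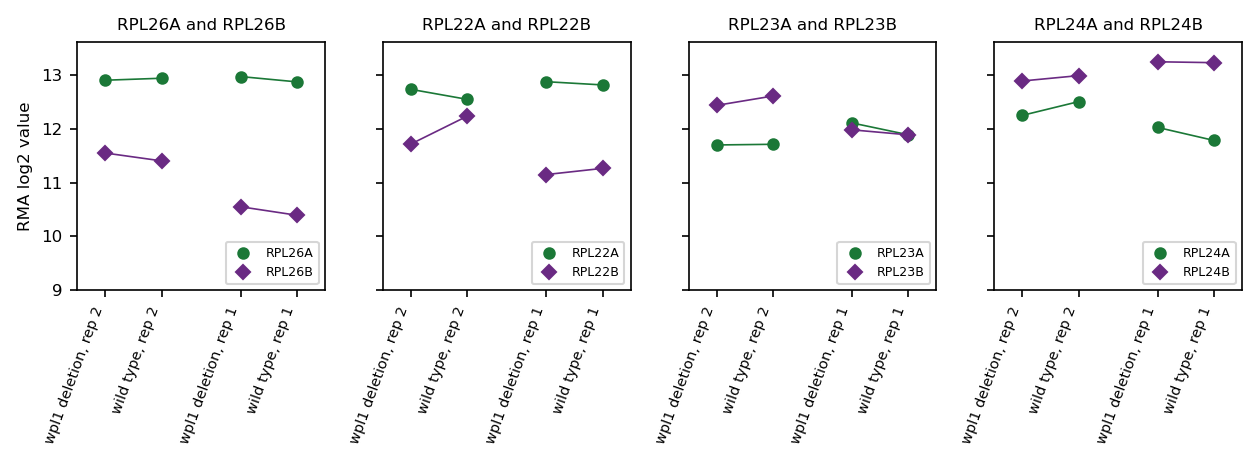
Log2 values of the A gene (green circles) and the B gene (purple diamonds) in the 4 arrays for RPL26, RPL22, RPL23 and RPL24, with replicate 2 on the left and replicate 1 on the right of each panel. Heights of A and B come from different probe sets and are not comparable. RPL26B lies at 11.40 to 11.55 in replicate 2 and at 10.39 to 10.55 in replicate 1, while RPL26A stays between 12.87 and 12.97.

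In the 19 pairs that did not pass, the change of A minus B between replicate numbers was at most 0.64 in size, in the RPL9 pair. RPL4A and RPL4B both fell, and their A minus B missed the threshold. RPP2A and RPP2B had nearly equal differences in both contrasts, with 0.21 and 0.25 between genotypes and −0.0085 and −0.0082 between replicate numbers.

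Over all genes 28.4% were called in the replicate contrast, with 8.75% higher and 19.7% lower in replicate 2. The share called in both directions together was smaller in the other lists. Among the small-subunit and assembly genes, however, the share higher was above that of all genes and the share lower was under it. Of the 51 small-subunit genes, 11 rose in replicate 2 and 0 fell in limma (21.6% called), with a median of 0.056. Of the 21 regulators, 1 rose and 2 fell (14.3% called): TOD6, a repressor of ribosome biogenesis genes, had 0.86 (adjusted p = 0.019 in limma), CRF1, a corepressor, had −0.85, and HMO1, a high mobility group protein at ribosomal protein promoters, had −0.48. CRF1 was below background in deletion replicate 2. Of the 54 assembly genes 8 rose and 2 fell (18.5% called), with a median of 0.24. SPB1, a ribosomal RNA methyltransferase, had 0.83 (adjusted p = 0.023 in limma), and AFG2, which releases Rlp24 from the early cytoplasmic subunit, had −0.71 (adjusted p = 0.028).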

How the data were processed

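The deposited log2 values were computed by the authors with affy's RMA method, as the submitters' processing notes list. RMA subtracts background, equalises the array distributions and summarises probes, so differences are relative to other transcripts. The sources used here give no versions and no genome build. Per the labels' protocols, total RNA was copied to double-stranded cDNA and end-labelled, which does not keep the strand, so antisense transcripts cannot be told apart from the gene.

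Of 10928 probe sets, 7244 had 1 symbol, and 5498 were matched by gene ID to NCBI's table of S. cerevisiae genes (used for names and gene order). Averaging probe sets, in 47 genes with several, left 5449 genes. Groups and replicate numbers came from sample titles. The deviations of same-numbered arrays, which share a date tag, correlated with r = 0.747 over genes, so the numbers pair the arrays. No arrays of a group were identical, with 25 and 39 probe sets exactly equal in the deposited values.

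All tests were limma 3.58.1 in R 4.3.3 (lmFit, eBayes, two-sided, Benjamini-Hochberg over all genes or all 52 A and B pairs, adjusted p under 0.05). The main fit on 4 arrays leaves 2 residual degrees of freedom, and the replicate block or the genotype as a term leaves 1. SEs of genotype differences hold the difference between replicate numbers. The steps were tested on simulated data. Alternatives were the replicate block (or the genotype as a term), dim genes left out, all probe sets, the brightest probe set, centring, quantile normalization, a trended and robust prior, no chromosome IX genes and each array left out.

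Members, lists and tests were chosen with earlier results of these data known. Named were the stalk genes, RPP1, the 4 genes per direction with the largest difference of the same sign in both replicate numbers or genotypes, the 4 such pairs, and from each list up to 3 genes per direction with the smallest p, of which the text gives some. No sequences were used here, so promoter motifs and protein identity were not analysed.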

Additional observations from a re-analysis of the deposited data

Results flagged for a closer look

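Differences with opposite signs in the 2 replicate numbers or in the 2 genotypes were collected for the genes named by rule, and for other large-subunit genes where both differences exceeded 0.15. None of these differences between differences was tested, and each rests on 1 array per genotype and replicate number.

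Between deletion and wild type, RPL28 had −0.27 in replicate 2 and 0.37 in replicate 1, which differ by −0.64. RPL9A had −0.19 in replicate 2 and 0.35 in replicate 1, a difference of −0.54. RPL24A had −0.26 in replicate 2 and 0.24 in replicate 1, a difference of −0.50. RPP1B had −0.077 and 0.32, which differ by −0.39, and RPL39 had −0.056 and 0.30, which differ by −0.35, with replicate 2 first. RPL41A went the other way, with 0.18 in replicate 2 and −0.23 in replicate 1, a difference of 0.40.

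Between replicate 2 and replicate 1, RPL9A had −0.38 in the deletion and 0.16 in wild type, a difference of −0.54. RPL31A had −0.17 in the deletion and 0.21 in wild type, a difference of −0.39. RPP2A had 0.11 in the deletion and −0.13 in wild type, a difference of 0.23. RPP2B had 0.052 in the deletion and −0.068 in wild type, a difference of 0.12. RPL21A had 0.069 in the deletion and −0.0097 in wild type, a difference of 0.079.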

How the results depend on the processing

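Between the genotypes, 0 of all genes and 0 of the 72 genes passed with the replicate block, which in this balanced design leaves the median over the 72 genes at 0.012. That median was 0.030 after centring, 0.029 after quantile normalization and −0.00021 to 0.020 with an array left out. Over all genes, leaving out each array in turn gave 0 to 3 calls, 3 without wild type replicate 1 and 1 without wild type replicate 2. Between the replicate numbers, 1550 genes passed, 487 with all probe sets in the fit and 290 to 1729 with an array left out. Over all genes, 1056 (19.4%) passed with the genotype as a term and 1763 (32.4%) with a trended and robust prior, against 28.4% in the main fit. Of the 72 genes, 13 were called between the replicate numbers, and 8 passed with the genotype as a term, all of them among the 13. RPP1 is counted in both numbers. With all probe sets 2 genes passed, with a trended and robust prior 27, and with an array left out 1 to 12. The median over the 72 genes, −0.0041, was 0.10 after centring, 0.0064 after quantile normalization and −0.014 to 0.034 with an array left out. After quantile normalization the split was 11 higher and 4 lower, and over all genes 762 higher and 756 lower. Of the pairs, 2 of the 25 and 3 of the 52 passed with the genotype as a term. With an array left out 0 to 9 of the 25 pairs and 0 to 25 of the 52 passed, against 6 and 14 with all arrays. The cause of these changes was not tested, and the fits that leave out 1 array also hold fewer arrays.

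Signs turned in 5 genotype differences. With an array left out RPL22B ran between −0.80 and 0.17, RPP1 between −0.43 and 0.17, the RPL22 pair between −0.18 and 1.06 and the RPL23 pair between −0.30 and 0.59. RPL21A was 0.011 with the brightest probe set. Over the single genes and pairs named, 241 values kept direction and side of the threshold, 31 lost it, 6 gained it and 7 turned. With 2 arrays per genotype, their number limits the precision.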

Other observations

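Neighbouring large-subunit genes can be set beside each other. RPL24A and RPL30 lie next to each other with 0 genes between, and their differences between replicate 2 and replicate 1 were 0.47 and 0.53. RPL13A and RPP1A, also with 0 genes between, had −0.28 each. RPL2A and RPL29, with 1 gene between, had −0.46 and 0.065. Across the 72 genes gene length, introns included, correlated with the difference between replicate numbers with Pearson's r = −0.244 and Spearman's rho = −0.158, as a description over genes that share the arrays.

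The array also carries 14 probe sets for ribosomal proteins of S. pombe, a species not grown here. Of these, rpl13 was above the background limit in all 4 arrays, with 7.60 in the deletion and 7.10 in wild type in replicate 2, against 6.04 and 6.08 in replicate 1. The probe set of rps102 was above it in 3 arrays, rps21 in 2 and rpl29 in 1, and the others in 0.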
